A study of Mus musculus with 4 samples.

Results

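The genes described are 9 cytosolic heat shock chaperones and co-chaperones in a mouse pancreatic β cell line given the nuclear receptor ERRγ. They were Hspa1a, Hspa1b and Hspa8 of the HSP70 class, Hsp90aa1 and Hsp90ab1 of the HSP90 class, Hsph1 of the HSP110 class, the small heat shock proteins Hspb1 and Cryab, and the BAG co-chaperone Bag3. Members were found by matching the mouse Ensembl IDs of the deposited tables to these symbols. This gave 12 of the 406 rows that carry a gene ID, for 9 of the 373 listed genes. All 9 genes had a row, 7 of them a single row, while Hsph1 had 3 rows and Cryab had 2. Row lengths showed that each row is 1 annotated transcript, written here with its transcript name (Hspa1b-201). The 9 genes have 48 annotated transcripts in all, so the added rows of a gene are the listed transcripts and need not be the whole gene.

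NIT-1 is an insulinoma-derived β cell line of the NOD/Lt mouse strain. All libraries came from NIT-1 cells of passages 20 to 25 transfected with 8.3 µg of plasmid in 16 µL of liposomal reagent. Control cells received the plasmid pRP[Exp]-CMVE>EGFP, which carries the fluorescent protein EGFP, and the other cells received pRP[Exp]-EGFP >ERR[gamma], which carries ERRγ, the receptor encoded by Esrrg. There were 2 libraries per group, described by the labels as biological replicates, and 4 in all. The labels do not give the share of cells that took up plasmid, the time after transfection or the promoter of the ERRγ plasmid. The name of the ERRγ plasmid also contains EGFP, and whether those cells made EGFP too was not checked here. Untransfected cells were not analysed here, so each difference is between the ERRγ plasmid and the control plasmid.

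Chaperones of the HSP70 class hold unfolded stretches of other proteins and release them in cycles driven by ATP. HSP110 proteins and BAG proteins, among them Hsph1 and Bag3, speed that release by exchanging the nucleotide bound to HSP70, HSP90 proteins finish the folding of kinases and steroid receptors, and small heat shock proteins such as Hspb1 and Cryab hold unfolded clients without ATP. Hspa8 and Hsp90ab1 are made in most cells at all times, whereas Hspa1a and Hspa1b are the forms strongly induced by heat, proteotoxic stress and other insults through the transcription factor HSF1. HSF1 binds heat shock elements, which are inverted repeats of the unit GAA. In β cells, which fold large amounts of proinsulin, these proteins are best known for protecting against inflammatory and oxidative damage.

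The libraries held 18769899 and 16895471 reads in control replicates 1 and 2, and 16605943 and 17466192 reads in ERRγ replicates 1 and 2, as recovered from the tables. The listed rows held 6.26% to 7.62% of them. How the rows were selected is not stated, and in RPKM (reads per kilobase of row, scaled to library size) 45.6% of these 406 rows lay below both controls in both ERRγ libraries and 41.9% lay above both. So few rows overlap that a member lying apart in the groups is close to the background here. Esrrg-201, a transcript of the transfected receptor gene, had 0.232 and 0 RPKM in control and 141 and 78.6 RPKM with ERRγ. None of 21 β cell markers and none of 29 markers of other pancreatic, stromal or immune cells had a listed row, so the cell type could not be checked here. In bulk RNA, fewer cells that express a gene and less of its RNA per cell cannot be told apart.

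Upstream sequence was given for 5 of the 9 genes, in the promoter tables of RefSeq on GRCm38.p6. Entries for Hspa8, Hsp90aa1, Hsp90ab1 and Cryab were not among them. The 250 bases before the annotated start are printed for the 4 of these 5 genes whose levels differed most between the groups. Capitals mark matches to a pair of inverted GAA units, GAANNTTC or TTCNNGAA, each of which reads the same on both strands.
Hspa1a (chr17:34972157-34972406, minus strand): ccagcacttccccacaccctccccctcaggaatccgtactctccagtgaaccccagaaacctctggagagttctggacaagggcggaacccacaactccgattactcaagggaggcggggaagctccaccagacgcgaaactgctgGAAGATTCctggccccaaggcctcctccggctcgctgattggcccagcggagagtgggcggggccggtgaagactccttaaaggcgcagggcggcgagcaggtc
Hspa1b (chr17:34959239-34959488, minus strand): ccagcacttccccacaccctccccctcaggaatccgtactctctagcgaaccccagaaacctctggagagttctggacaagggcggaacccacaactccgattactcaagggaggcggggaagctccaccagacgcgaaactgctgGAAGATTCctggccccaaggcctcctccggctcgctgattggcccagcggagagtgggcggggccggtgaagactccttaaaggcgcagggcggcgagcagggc
Hspb1 (chr5:135887669-135887918, plus strand): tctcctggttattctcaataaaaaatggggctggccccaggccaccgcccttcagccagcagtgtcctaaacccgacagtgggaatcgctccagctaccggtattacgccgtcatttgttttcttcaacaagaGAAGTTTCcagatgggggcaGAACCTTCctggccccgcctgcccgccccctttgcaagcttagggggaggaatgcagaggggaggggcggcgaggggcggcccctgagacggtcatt
Hsph1 (chr5:149636337-149636586, minus strand): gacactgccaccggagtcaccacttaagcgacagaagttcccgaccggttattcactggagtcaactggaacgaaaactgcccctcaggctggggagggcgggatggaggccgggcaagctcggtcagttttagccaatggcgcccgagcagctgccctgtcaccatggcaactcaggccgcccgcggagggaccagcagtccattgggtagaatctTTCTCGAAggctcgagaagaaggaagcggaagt

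The upstream sequences of the inducible HSP70 pair were nearly the same. Hspa1a and Hspa1b matched at 247 of 250 bases and differed by C44T, T47C and T249G, with the Hspa1a base first and positions counted from 1 at the 5′ end of the printed sequence. Both hold GAAGATTC, whose first base lies 104 bases before the start. Hspb1 holds 2 matches, GAAGTTTC and GAACCTTC, which begin 117 and 97 bases before the start. Hsph1 holds TTCTCGAA, 33 bases before the first of its 2 RefSeq starts, and the window of Bag3 holds neither pair. The GENCODE gene of Hsph1, on the minus strand, begins at 149636376, within the printed window. This match therefore lies inside the GENCODE gene, not upstream of it. Among 32851 windows of the same length in the table, 6.69% hold GAANNTTC and 7.17% hold TTCNNGAA. A run of 3 units, GAANNTTC continued by NNGAA, searched on both strands and overlapping the pairs, is in 0.466% of all windows and in none of these 5 genes. The ERR response element TNAAGGTCA, also searched on both strands, is in 1.14% of all windows and in none of these 5. A match describes the letters alone, and a lack of one says only that these letters are not in this window.

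The inducible HSP70 genes differed most of the 9. Hspa1b-201 (gene at chr17:34956436-34959238, minus strand, GRCm38, a single exon) had 138 RPKM in control replicate 1, 156 in control replicate 2, 6.62 in ERRγ replicate 1 and 5.96 in ERRγ replicate 2. Both ERRγ libraries were far below both controls and close to each other. The control mean of 147 ± 12.5 RPKM compares with an ERRγ mean of 6.29 ± 0.462 RPKM (SD, n = 2), or 4.28% of control. Hspa1b-201 fell in the all-read test, edgeR's quasi-likelihood test on all reads with the recovered library sizes (log2 fold change −4.55 ± 0.13 (SE), edgeR, adjusted p = 0.000393). It also passed with any 1 library left out (edgeR, adjusted p between 8.97e-05 and 0.0274).

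Hspa1a-201 (chr17:34969190-34972156, minus strand, a single exon), the neighbouring copy, had 15.2 and 19.3 RPKM in control and 0.731 and 0.386 RPKM with ERRγ. These came from 847 and 965 reads in control but only 36 and 20 reads in ERRγ, so the last values rest on few reads. The groups did not overlap, and Hspa1a-201 fell in the all-read test (−4.94 ± 0.62 (SE), edgeR, adjusted p = 0.0444). Its adjusted p was 0.0543 to 0.0838 with 1 library left out, above the threshold each time. Hspa1b had 8.09 to 15.5 times the RPKM of Hspa1a in the 4 libraries, the highest ratio in ERRγ replicate 2, where Hspa1a had its fewest reads.

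Reads of the pair are hard to separate, because the coding sequences are 99.6% identical, with 8 mismatches over 1923 aligned bases. Uniquely placed reads, which avoid this sharing, showed the same direction. Hspa1b-201 had 3461 and 3530 unique reads in control and 146 and 137 in ERRγ, and Hspa1a-201 had 412 and 495 against 19 and 10. The unique-read test, the same edgeR test on unique reads, gave −4.56 ± 0.21 (SE) for Hspa1b-201 and −4.90 ± 0.34 (SE) for Hspa1a-201 (adjusted p from edgeR of 1.62e-19 and 1.29e-14). Common dispersion, the spread between replicates that the fit shares over rows, was 0.0138 for unique reads and 0.534 for all reads. The prior degrees of freedom in edgeR, which set how strongly rows share their spread, were 31.6 and 2.50 in that order. The SE of Hspa1b-201 was larger with unique reads (0.21 against 0.13), so its smaller adjusted p does not show tighter replicates. That of Hspa1a-201 was smaller (0.34 against 0.62). With TMM on unique reads both rows still passed, at −4.22 for Hspa1b-201 and −4.56 for Hspa1a-201 (edgeR, adjusted p = 1.47e-09 and 1.89e-07).

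Gm20481-201, annotated on the plus strand inside the Hspa1a locus (chr17:34969912-34972136), had the same pattern as the pair. It had 43.5 and 56.0 RPKM in control and 2.35 and 1.42 RPKM with ERRγ, from 461, 534, 22 and 14 reads, all of them counted as unique. That is 1.08 to 1.40 times the unique reads of Hspa1a in the same library. Of its 151-base windows, 65.2% occur in Hspa1a on the other strand. Whether reads were counted by strand is not stated, so reads of Gm20481 and of Hspa1a cannot be told apart.

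Hspa8, the constitutive HSP70, stayed abundant. Hspa8-202 (gene at chr9:40800984-40810087, plus strand) had 722 and 757 RPKM in control and 547 and 575 RPKM with ERRγ. Both ERRγ libraries were below both controls, at 75.9% of the control mean. It fell in the all-read test (−0.40 ± 0.07 (SE), edgeR, adjusted p = 0.0454), but not with TMM scaling (−0.24, edgeR, adjusted p = 0.0907) or with any 1 library left out (edgeR, adjusted p 0.0582 to 0.212). Only 23 of its 91806 reads were unique, too few for the unique-read test. Hspa8 had 4.86 and 5.23 times the RPKM of Hspa1b in the controls and 82.7 and 96.4 times in the ERRγ libraries. Hspa1a and Hspa1b made up 17.5% and 18.8% of the summed HSP70 RPKM in the controls and 1.32% and 1.09% in the ERRγ libraries.

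**Figure D1:**
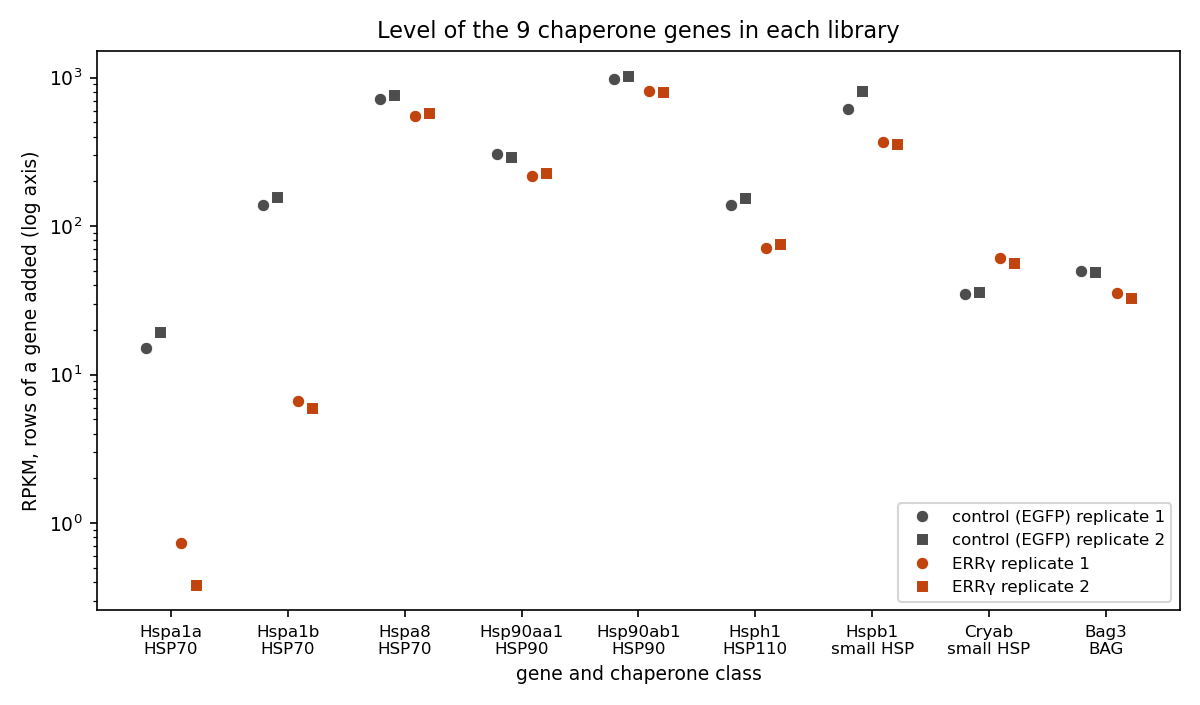
RPKM of each of the 9 genes on a log axis, with rows of a gene added, in control libraries (grey) and ERRγ libraries (orange), circles for replicate 1 and squares for replicate 2. Hspa1a and Hspa1b show the widest gaps (138 and 156 against 6.62 and 5.96 RPKM for Hspa1b), and Cryab alone lies higher in both ERRγ libraries.

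The HSP90 genes were the most abundant class and differed least. Hsp90ab1-201 (gene at chr17:45567775-45573271, minus strand), for the constitutive form, had 971 and 1022 RPKM in control and 815 and 804 RPKM in ERRγ, the highest level of the 9 genes in every library. The ERRγ mean was 81.2% of control, and the all-read test did not pass (−0.30 ± 0.06 (SE), edgeR, adjusted p = 0.0518). The unique-read test did not pass either (−0.23 ± 0.12 (SE), with edgeR's adjusted p = 0.0865), and the sign turned with TMM on unique reads (0.12 ± 0.12 (SE), edgeR, adjusted p = 0.477).

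Hsp90aa1-201 (gene at chr12:110690605-110702728, minus strand), for the form that stress induces, had 305 and 293 RPKM in control and 219 and 226 RPKM in ERRγ, or 74.3% of the control mean. It fell in the all-read test (−0.43 ± 0.07 (SE), edgeR, adjusted p = 0.0454), but not with TMM (−0.27, edgeR, adjusted p = 0.0695) or with 1 library left out (edgeR, adjusted p 0.0609 to 0.200). All but 8 of its 52064 reads were shared with other transcripts. The ratio of Hsp90ab1 to Hsp90aa1 was 3.18 and 3.48 in the controls and 3.73 and 3.56 in the ERRγ libraries, close together in both groups.

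The scaling of the libraries changed these smaller differences. TMM on the column totals raised the median log2 fold change over all tested rows by 0.17, and column totals alone raised it by 0.26. TMM, column totals and the size factors of DESeq2 come from the listed rows alone, which held 6.26% to 7.62% of the reads. Totals of such selected rows are not the depth of a library, so which scaling is nearer the truth cannot be decided here. With column totals the log2 fold change was −0.14 for Hspa8-202, −0.17 for Hsp90aa1-201 and −0.04 for Hsp90ab1-201, and none of these passed (edgeR, adjusted p = 0.224, 0.151 and 0.569). For Hspa1b-201 it was still −4.29 (edgeR, adjusted p = 0.000517).

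Hsph1 (chr5:149614287-149636376, minus strand), the HSP110 partner that recharges HSP70, was listed as 3 transcripts, all below both controls. Hsph1-201, a coding transcript, had 55.8 and 50.4 RPKM in control and 22.9 and 22.3 RPKM in ERRγ. It fell in the all-read test (−1.23 ± 0.13 (SE), edgeR, adjusted p = 0.0342), while with 1 library left out the adjusted p was 0.0535 to 0.117. Hsph1-211, also coding, had 38.6 and 41.9 RPKM in control and 22.4 and 26.8 RPKM in ERRγ, and missed the threshold (edgeR, adjusted p = 0.0518). Hsph1-208, annotated with a retained intron, had 43.6 and 61.1 RPKM against 25.8 and 27.1 RPKM, and its controls lay far apart (edgeR, adjusted p = 0.145).

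Added, the 3 Hsph1 rows had 138 and 153 RPKM in control and 71.2 and 76.2 RPKM in ERRγ, or 50.6% of the control mean. The sum fell in the all-read test on added rows (−0.97 ± 0.08 (SE), edgeR, adjusted p = 0.0195). With 1 library left out, 1 of 4 fits still passed (edgeR, adjusted p 0.0397 to 0.169). The unique-read test on added rows passed as well (−1.14 ± 0.37 (SE), edgeR, adjusted p = 0.0227), from 47 and 23 unique reads in control and 14 and 16 with ERRγ. It did not pass with TMM on unique reads (−0.79, edgeR, adjusted p = 0.0770). In the unique-read test on added rows 50% of 120 genes were called lower and 10.8% higher.

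**Figure D2:**
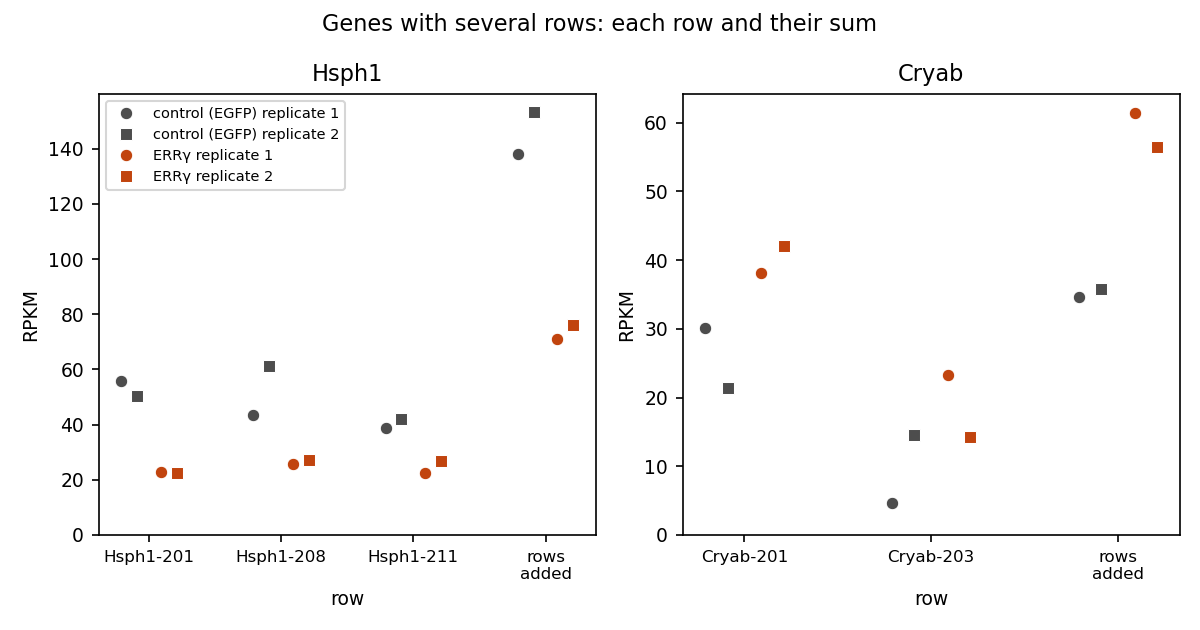
RPKM of each row of Hsph1 (left) and Cryab (right) and of the rows added, in the same colours and symbols as the plot of gene levels, with axes from 0. The added rows of Hsph1 lie at 138 and 153 against 71.2 and 76.2 RPKM and those of Cryab at 34.7 and 35.8 against 61.4 and 56.4 RPKM, although single Cryab rows overlap or spread.

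The small heat shock genes lay on opposite sides of the controls. Hspb1-201 (gene at chr5:135887919-135889563, plus strand), for the protein HSP25, had 610 and 811 RPKM in control and 370 and 357 RPKM in ERRγ. The controls differed widely from each other, yet both lay above both ERRγ libraries, whose mean was 51.1% of control. Hspb1-201 fell in the all-read test (−0.97 ± 0.15 (SE), edgeR, adjusted p = 0.0454) and with unique reads (−0.83 ± 0.24 (SE), with an adjusted p from edgeR of 0.00844). Neither call held under every setting: the all-read adjusted p was 0.0501 to 0.106 with 1 library left out and the unique-read test with TMM gave 0.123 (edgeR).

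Hsp25-ps1-201, a processed pseudogene of Hspb1 on chromosome 13 (45078498 to 45079127, minus strand), is no member but shares reads with it. Of its windows of read length, 83.8% occur in Hspb1, and 53.4% of those of Hspb1-201 occur in it. The pseudogene row had 121 and 120 RPKM in control and 60.4 and 39.8 RPKM in ERRγ (−1.26 ± 0.31 (SE), edgeR, adjusted p = 0.0531). Only 2.81% of its reads were unique, so its reads and those of Hspb1 are hard to separate.

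Cryab (chr9:50751325-50756636, plus strand), for αB-crystallin, was the 1 gene of the 9 that lay above the controls. Cryab-201 had 30.1 and 21.3 RPKM in control and 38.1 and 42.1 RPKM in ERRγ, with no overlap. Cryab-203 had 4.60 and 14.5 RPKM in control and 23.3 and 14.3 RPKM in ERRγ, with control replicate 2 just above ERRγ replicate 2. Neither passed the all-read test (edgeR, adjusted p = 0.242 and 0.350).

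The sum of both Cryab rows was steadier than either row. It was 34.7 and 35.8 RPKM in control and 61.4 and 56.4 RPKM in ERRγ, or 167% of the control mean, although Cryab-203 held anywhere from 13.3% to 40.4% of it. The sum did not pass the all-read test (0.73 ± 0.27 (SE), edgeR, adjusted p = 0.119). It rose when unique reads of its rows were added (1.07 ± 0.34 (SE), edgeR, adjusted p = 0.0225) and with TMM on unique reads (1.42 ± 0.34 (SE), edgeR, adjusted p = 0.00105), from only 21 and 12 unique reads in control and 36 and 30 in ERRγ. Hspb2 overlaps the start of Cryab on the other strand and has no listed row, though no window of 151 bases in either Cryab row occurs in another gene. The ratio of Hspb1 to Cryab was 17.6 and 22.6 in the controls and 6.02 and 6.33 in the ERRγ libraries.

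Bag3, the co-chaperone that links HSP70 to small heat shock proteins and to autophagy, was lower in both ERRγ libraries. Bag3-201 (gene at chr7:128523616-128546981, plus strand) had 50.1 and 49.3 RPKM in control and 35.6 and 33.0 RPKM in ERRγ, or 69.0% of the control mean. It is the only annotated transcript of its gene and all of its reads were unique, 2407 and 2136 in control and 1516 and 1476 in ERRγ. Its log2 fold change was −0.53 ± 0.14 (SE) with all reads, short of the threshold (edgeR, adjusted p = 0.0568). The unique-read test used these same counts, so it is no separate measurement. It gave the same log2 fold change with a smaller adjusted p (−0.53 ± 0.17 (SE), edgeR, adjusted p = 0.0131). The SE was larger, not smaller, so that p does not reflect tighter replicates of Bag3-201. In the unique-read test edgeR's prior degrees of freedom were 31.6 against 2.50 with all reads, and common dispersion was 0.0138 against 0.534. That test called 51.2% of 121 rows lower. With TMM on unique reads Bag3-201 did not pass (−0.19 ± 0.15 (SE), edgeR, adjusted p = 0.369).

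Counted together, 10 of the 12 rows lay below both controls, 1 above and 1 overlapped. Of all 406 rows, 45.6% lay below both controls and 41.9% above. The all-read test called 6 of the 12 rows lower and 0 higher, where 5.6% of the 375 tested rows were called lower and 1.07% higher. The median log2 fold change was −0.62 over the 12 rows and −0.27 over all 375. With rows of a gene added, 6 of the 9 genes were called lower and 0 higher, where 8.65% of 347 genes were called lower and 1.73% higher. In RPKM 8 of the 9 genes lay below both controls and 1 above, where 43.7% and 41.6% of all 373 genes did. The unique-read test called 4 of 7 member rows lower and 1 higher, near the 51.2% and 9.09% of all 121 rows. With TMM the all-read test called 1 of the 12 rows, Hspa1b-201, where 0.268% of 373 rows were called lower. Hspa1b-201 was also the single row called without a filter on low counts. With any 1 library left out, the log2 fold change of Hspa1b-201 was −4.63 to −4.46. TMM on unique reads called 2 of 7 rows lower, Hspa1a-201 and Hspa1b-201, and 1 higher, Cryab-201, where 10% and 24.2% of 120 rows were called. DESeq2 called 9 rows lower and 1 higher, where 22.4% and 26.6% of 406 rows were called.

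**Figure D3:**
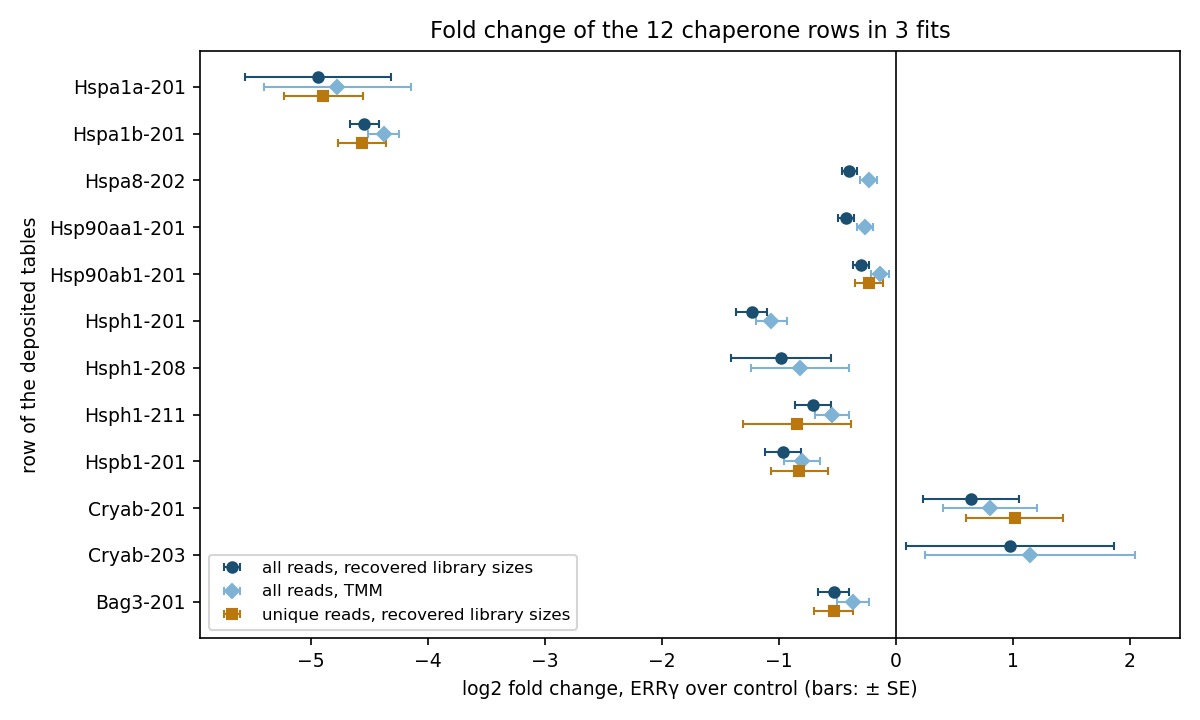
Log2 fold change of ERRγ over control (points) with its SE (bars) for the 12 rows, from all reads with the recovered library sizes, all reads with TMM and unique reads with the recovered library sizes. The inducible HSP70 rows lie between −4.94 and −4.38, Hspa8 and HSP90 rows between −0.43 and −0.14, and only Cryab rows lie above 0, and 5 rows had too few unique reads for a value.

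The classes were compared by their summed RPKM, a level per length, in each library. HSP70 had 875 and 932 RPKM in control and 555 and 581 RPKM in ERRγ (62.8% of the control mean). HSP90 had 1276 and 1315 against 1034 and 1030 RPKM (79.6%). HSP110 had 138 and 153 against 71.2 and 76.2 RPKM (50.6%). The small heat shock class had 645 and 847 against 431 and 413 RPKM (56.6%), and BAG had 50.1 and 49.3 against 35.6 and 33.0 RPKM (69.0%). The small heat shock sum is mostly Hspb1 and hides Cryab, which lay above the controls. Cryab held 5.37% and 4.23% of that sum in control and 14.2% and 13.6% in ERRγ. All 5 classes were lower in both ERRγ libraries, and an exact permutation test of 2 libraries against 2 (two-sided) gave the smallest p it allows, 0.333, for each. With RPKM divided by a size factor, which rests on the listed rows alone, the log2 difference of HSP90 went from −0.33 to −0.13. That of BAG went from −0.54 to −0.33. In unique reads per length, that of HSP70 went from −0.67 to −4.55 and that of HSP110 from −0.98 to −1.65. The HSP70 value leaves Hspa8 nearly out, with 23 unique reads of 91806. The HSP110 value gives much weight to the short row Hsph1-208, with 14 and 8 unique reads in control and 3 and 1 with ERRγ. Without scaling by length, the added unique reads of Hsph1 gave −1.14.

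Ratios between classes inside a library do not depend on library size. HSP90 had 9.25 and 8.57 times the RPKM of HSP110 in the controls and 14.5 and 13.5 times in the ERRγ libraries. On the log2 scale that difference was 0.65 in RPKM and 1.42 in unique reads. All unique-read ratios with HSP90 rest nearly on Hsp90ab1 alone, since Hsp90aa1 had 8 unique reads of 52064. All unique-read ratios with HSP110 rest on few unique reads of Hsph1, 47 and 23 in control and 14 and 16 with ERRγ. HSP70 was 0.685 and 0.709 times HSP90 in the controls and 0.537 and 0.564 times in the ERRγ libraries, a log2 difference of −0.34 that was −4.33 in unique reads. HSP70 to HSP110 went from 6.34 and 6.08 to 7.80 and 7.62, but the direction turned with unique reads (−2.90 on the log2 scale), which hold almost nothing of Hspa8. The ratios of HSP70 to the small heat shock class, HSP70 to BAG and HSP110 to the small heat shock class overlapped between the groups in RPKM. In unique reads the log2 difference of HSP70 to BAG went from −0.13 to −4.02, that of HSP110 to the small heat shock class from −0.17 to −1.03 and that of HSP110 to BAG from −0.45 to −1.11. It went from 0.21 to 0.31 for HSP90 to BAG and from −0.27 to −0.08 for the small heat shock class to BAG. HSP90 to the small heat shock class went from 1.98 and 1.55 to 2.40 and 2.49 in RPKM, without overlap. For that ratio the log2 difference was 0.48 in RPKM and 0.39 in unique reads. Over the 10 pairs the exact permutation p was 0.333 or 0.667, and 0.476 or 0.667 after Benjamini-Hochberg adjustment.

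The order of the genes by level changed at its lower end. In control libraries the RPKM fell from Hsp90ab1 over Hspa8, Hspb1 and Hsp90aa1 to Hspa1b and Hsph1, then Bag3, Cryab and Hspa1a. Hspa8 and Hspb1 overlapped there, as did Hspa1b and Hsph1. In ERRγ libraries the first 4 kept that order, followed by Hsph1, Cryab, Bag3, Hspa1b and Hspa1a, with no overlap between neighbours. Summed over the 9 genes the level was 2985 and 3297 RPKM in control and 2126 and 2134 RPKM in ERRγ.

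How far a row can be read on its own depends on how much sequence it shares. For each row, all windows of 151 bases, the read length, were searched in every transcript of GENCODE M21 on both strands. Bag3-201 had 100% of its windows to itself and 100% unique reads. Hspa1b-201 had 59.7% of its windows to itself and 47.7% unique reads, and Hspa1a-201 had 54.2% and 50.1%. At the other end, Hspa8-202 shared 92.1% of its windows with other Hspa8 transcripts and 67.0% with other genes, mostly Gm26825, and had 0.0251% unique reads. Hsp90aa1-201 shared 95.0% with its own gene and 41.7% with other genes. Hsph1 and Cryab rows shared windows only with their own gene, so their added rows lose nothing to other genes at this length. Gm20481-201 stood furthest apart, with 34.8% of its windows to itself and 100% unique reads. Hsp90ab1-201 also had a larger share of unique reads (64.5%) than of windows to itself (39.5%).

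**Figure D4:**
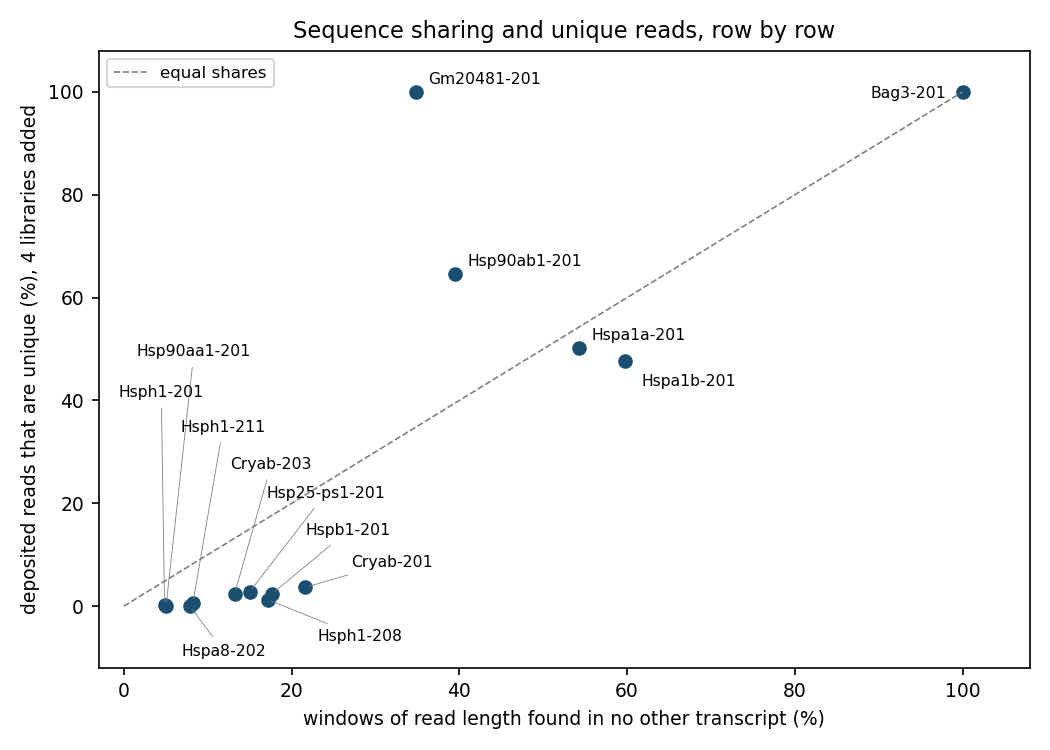
For the 12 chaperone rows, Gm20481-201 and Hsp25-ps1-201, the percentage of 151-base windows found in no other GENCODE M21 transcript (horizontal) against the percentage of deposited reads that are unique, all libraries added (vertical), with a dashed line of equal shares. Bag3-201 lies at 100% on both axes, the Hspa1a and Hspa1b rows near the line, and all Hsph1, Cryab, Hspa8 and Hsp90aa1 rows under 4% unique reads. Gm20481-201 and Hsp90ab1-201 lie above the line.

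Few other genes of protein folding were listed. Of 74 further chaperones, co-chaperones, heat shock factors and proteotoxic stress genes, 9 had a row. Of these, 8 lay below both controls and 1 above, where 45.6% and 41.9% of all 406 rows did. The all-read test in edgeR called 0 of the 9, where 5.6% of 375 rows were called lower and 1.07% higher. DESeq2 called 1 lower, Dnajc7-210, and 1 higher, Hyou1-206, where 22.4% and 26.6% of 406 rows were called. No heat shock factor had a row. Dnaja1-201, for a J-domain partner of HSP70, had 80.0 and 90.1 RPKM in control and 63.5 and 64.6 RPKM in ERRγ (edgeR, adjusted p = 0.0518). The endoplasmic reticulum chaperone rows Hspa5-202 (447 ± 15.2 against 351 ± 9.71 RPKM, SD, n = 2) and Hsp90b1-201 (433 ± 13.5 against 360 ± 1.54 RPKM) and the mitochondrial chaperonin row Hspd1-201 (120 ± 7.77 against 96.0 ± 0.976 RPKM) lay below both controls.

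The other stress genes on that list had lower levels. Hmox1-201, for the haem-degrading enzyme that HSF1 and oxidants induce, had 31.5 and 40.4 RPKM in control and 25.1 and 23.2 RPKM in ERRγ, and fell when unique reads were tested (adjusted p = 0.0227 from edgeR). Atf3-201, for a stress transcription factor, had 44.2 and 38.0 against 28.9 and 14.8 RPKM and fell there too (edgeR, adjusted p = 0.0323). That unique-read test called 51.2% of all 121 tested rows lower. Neither Hmox1-201 nor Atf3-201 passed with TMM on unique reads (edgeR, adjusted p = 0.375 and 0.293). Hyou1-206, a transcript of an endoplasmic reticulum relative of HSP110, was the 1 row above both controls, at 6.10 and 2.54 against 11.1 and 9.95 RPKM (edgeR, adjusted p = 0.145).

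Among the rows of other genes, the 5 closest in pattern to the summed Hspa1a and Hspa1b were Gm20481-201, Ehmt2-204, Uba7-201, Anxa4-209 and Srsf5-202. Closeness was the Euclidean distance of centred log2(RPKM + 1) values over the 4 libraries, and a row that did not vary would lie at 4.40. Gm20481-201 lay at 0.341 and the others between 1.32 and 1.63. Ehmt2-204 had 11.3 and 6.88 RPKM in control and 0.0620 and 0.0442 RPKM in ERRγ. Another row of that gene, Ehmt2-201, lay the other way, at 31.7 and 28.8 RPKM in control and 50.5 and 40.5 RPKM in ERRγ. Uba7-201 had 15.8 and 5.69 against 0.0188 and 0 RPKM. Of the 5 closest rows, the 4 other than Gm20481-201 had at most 6 unique reads in a library.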

How the data were processed

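RNA of 4 libraries was sequenced as paired-end reads of 151 bases, per the labels' protocols. The authors deposited, per the file headers, for each of 409 rows per library an RPKM value and 2 raw counts, one of uniquely placed reads and one of all reads. The submitters' processing notes name the build mm8; which aligner, counting program or annotation was used is not given in the sources used here. The header name of the ERRγ replicate 1 library ends differently from the other 3, with no meaning stated. Per library, 3 rows without a gene ID (0.0121% to 0.0332% of listed reads) were left out. Total reads divided by RPKM gave whole row lengths with a single library size per table, and 397 of 406 lengths matched 1 transcript of the row's gene (GENCODE M21, GRCm38). Coordinates are from GRCm38, never from mm8.

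Tests compared ERRγ with control with the quasi-likelihood test of edgeR 4.0.16 in R 4.3.3, after filterByExpr and with the recovered library sizes, no TMM and a Benjamini-Hochberg adjusted p under 0.05 over all rows. SE values were derived from the F statistic. DESeq2 1.42.0 and limma 3.58.1 were alternatives, limma on log2(RPKM + 1) and log2(RPKM + 0.1). Class ratios used an exact permutation test over libraries. The rows described individually were those of the members, of a wider folding list and of overlapping genes, Esrrg, and the 5 rows nearest in pattern, while background shares cover every row with a gene ID that was tested; Hsp25-ps1 was added after its values were seen. Members, lists and tests were chosen with earlier results of these data known. P-values rest on 2 libraries per group. The adjustment covered only those listed rows that were tested, and how rows came to be listed is not stated. In RPKM 45.6% of the 406 rows lay below both controls and 41.9% above. If rows were listed for such differences, an adjusted p is no false discovery rate. A row that passed or fell is therefore described only against the other listed rows.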

Additional observations from a re-analysis of the deposited data

How the results depend on the processing

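The all-read test called 25 rows in all and 6 of the 12 chaperone rows. These counts became 1 and 1 with TMM, 3 and 1 with column totals, 1 and 1 without a filter, 1 and 1 with the replicate block, 199 and 10 with the DESeq2 Wald test, and 41 and 3 with unique reads under TMM, a setting chosen after seeing the data. Limma on log2(RPKM + 0.1) called 42 and 2, and limma on log2(RPKM + 1) called 29 and 2. Unique reads called 73 of 121 tested rows and 5 of 7 tested chaperone rows. A mean count of at least 50 called 42 rows in all and 7 chaperone rows. With 1 library left out the counts were 1 to 2 rows in all and 1 to 1 chaperone row. In length-scaled unique reads, 6 chaperone rows lay below both controls against 10 in RPKM, where 45.6% of all 406 rows did. The share of all rows in length-scaled unique reads is not given here. Signs turned for Hsp90ab1-201 and for Hsp90ab1 with rows added under unique reads with TMM (0.12 and 0.13). They also turned for the ratios of HSP70 to HSP110 (−2.90) and to the small heat shock class (−3.93) in unique reads, and for the latter without control replicate 2 (−0.0123, with a range of −0.0123 to 0.288 over the 4 fits). The labels do not say that equal replicate numbers share a batch, and deviations of same-numbered libraries had a correlation of −0.02 over 406 rows. The cause of these shifts was not tested.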
